A study of Mus musculus with 6 samples.

Results

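Granule cells and unipolar brush cells are the excitatory neurons of the cerebellar granular layer, and 31 genes that mark them or specify them were followed in cerebellar RNA of Gb5-deficient and wild-type mice. The genes were listed by symbol and each was read from probes annotated to that symbol alone, by the probe with the highest mean over the arrays. Such a probe existed for 30 of the 31 genes, out of 18193 genes with a 1-gene probe in the series; the probes of Etv1 are annotated to Gm5454 as well, so this factor of late granule cells is given no value. Of the 30, 29 had a mean above the limit for dim probes (the 30th percentile of all probe means, 4.70 on the log2 scale) and were among the 14067 genes tested. Lmx1a, a roof plate and unipolar brush cell factor, stayed below it.

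Each genotype was represented by 3 arrays: Gb5-deficient arrays 4, 5 and 6 and wild-type arrays 1, 2 and 3, described as biological replicates of mice. Gb5, encoded by Gnb5, is the G protein beta subunit that pairs with R7-family RGS proteins in neurons. The labels give brain tissue and the series title cerebellum; age, sex, strain and the targeted allele are not given beyond a statement that littermates matched for age and sex were used. Nothing says that the deletion is restricted to a cell type, and each array carries whole tissue, so that fewer cells of a type and less RNA per cell cannot be told apart. Values are log2 probe signals after the authors' RMA normalization, which sets the overall level of the arrays alike.

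Granule cells arise from the rhombic lip, where Atoh1-expressing progenitors divide, switch on Neurod1 and the Zic genes, migrate inward and extend parallel fibres that release glutamate onto Purkinje cells. Unipolar brush cells come from the same lip, express Eomes, and relay mossy fibre input within the granular layer. Cerebellins secreted from parallel fibres bridge presynaptic neurexins to the glutamate delta receptor of Purkinje cells, and the nuclear factor I (NFI) proteins, with ZIC, MEIS and PAX6, are transcription factors of granule cell differentiation.

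5 gene starts are shown because their genes carry the patterns described here. Eomes and Cbln3 varied with the array inside each genotype. Zic5 varied mainly among the Gb5-deficient arrays (SD 0.24, against 0.07 in wild type). Barhl1 and Neurod2 belong to the few genes whose genotypes did not overlap. Each line holds the 250 bases before a transcript start, 5′ to 3′, from RefSeq on GRCm38.p6; Barhl1 has 2 starts in the table and the first is printed. Capitals mark the letters TTGGC (an NFI half-site), CAGATG (an E-box bound by NEUROD factors) or TGACAG (a core bound by MEIS factors) on either strand.
Eomes (T-box factor of unipolar brush cells, chr9:118477939-118478188, plus strand): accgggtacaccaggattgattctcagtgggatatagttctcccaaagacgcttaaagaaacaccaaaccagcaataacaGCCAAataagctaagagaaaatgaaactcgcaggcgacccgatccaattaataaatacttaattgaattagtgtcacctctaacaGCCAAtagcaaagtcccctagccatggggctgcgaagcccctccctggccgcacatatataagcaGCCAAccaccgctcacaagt
Cbln3 (granule cell cerebellin, chr14:55884257-55884506, minus strand): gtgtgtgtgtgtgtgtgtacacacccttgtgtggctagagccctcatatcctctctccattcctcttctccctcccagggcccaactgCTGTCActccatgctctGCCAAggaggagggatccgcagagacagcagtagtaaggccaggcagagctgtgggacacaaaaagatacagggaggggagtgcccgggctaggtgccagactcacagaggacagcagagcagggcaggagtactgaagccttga
Zic5 (zinc finger factor of granule cells, chr14:122465659-122465908, minus strand): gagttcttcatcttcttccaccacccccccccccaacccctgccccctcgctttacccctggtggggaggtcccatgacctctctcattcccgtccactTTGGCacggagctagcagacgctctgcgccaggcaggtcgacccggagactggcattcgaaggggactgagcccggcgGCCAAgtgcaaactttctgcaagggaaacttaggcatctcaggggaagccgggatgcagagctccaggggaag
Barhl1 (homeobox factor of granule cells, chr2:28916669-28916918, minus strand): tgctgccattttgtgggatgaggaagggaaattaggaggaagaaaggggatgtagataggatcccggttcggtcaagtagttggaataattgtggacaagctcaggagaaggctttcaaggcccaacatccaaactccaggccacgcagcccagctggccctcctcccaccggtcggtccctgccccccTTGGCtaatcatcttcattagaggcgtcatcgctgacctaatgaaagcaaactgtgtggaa
Neurod2 (basic helix-loop-helix factor, chr11:98329646-98329895, minus strand): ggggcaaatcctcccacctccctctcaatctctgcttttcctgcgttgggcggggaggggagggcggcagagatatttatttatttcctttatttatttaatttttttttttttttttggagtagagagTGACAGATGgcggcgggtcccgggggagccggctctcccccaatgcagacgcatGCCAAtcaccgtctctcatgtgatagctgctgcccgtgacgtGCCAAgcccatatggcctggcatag
The NFI half-site was found 3 times before Eomes, 2 times before Zic5 and Neurod2, and once before Cbln3 and Barhl1. In Neurod2 the MEIS core and the NEUROD E-box overlap, and Cbln3 also holds a MEIS core. Over all 32851 windows of the same length, 41.5% held an NFI half-site, 14.4% the E-box and 15.9% the MEIS core. Among 35 windows of the 25 listed genes that the table holds, 18, 5 and 5 did. These are matches of letters and say nothing of binding.

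Before the comparison, the arrays were checked against their labels. Gnb5 read 3.65, 3.36 and 2.96 on the Gb5-deficient arrays, against 8.80, 8.51 and 8.70 on the wild-type arrays (log2 fold change -5.35, SE 0.18; limma adjusted p = 4.33e-06). Gb5-deficient array 6 stood apart: Xist read 8.22 there and 11.17 to 11.64 on the other arrays, the Y-linked Eif2s3y read 11.80 against 3.19 to 3.43, and the 3′ minus 5′ difference of the Gapdh control probes was 1.58 against 1.03 to 1.14. The Xist and Eif2s3y values of array 6 go against the labels' statement of sex-matched littermates. The change without that array is therefore given beside several of the listed genes with the larger differences. It is not given for genes of the other lists named below. Among these, array 6 was the highest of all arrays for Grin2c, Gabrd, Gli2, Rac3, Lrp8, Slc1a6, Slc32a1 and Csf1r. It was the lowest of all arrays for Pbx2, Ermn and Nrxn2. For Slc6a3 and Foxc2 it was neither the highest nor the lowest. Pearson's r over all probes was 0.991 to 0.997 for the pairs of arrays. The cerebellar neuron markers Gabra6 (12.06 to 12.85) and Pcp2 (12.58 to 12.75) were bright on every array. Of 8 forebrain markers listed, 6 had a 1-gene probe: Emx1 and Lhx2 lay below the limit for dim probes, and Emx2, Tbr1, Neurod6 and Bcl11b above it. Of the 30 genes' probes, 19 lay above the 90th percentile of probe signals in wild type and 29 above the 50th; brightness depends on the probe as well as the RNA, and probes of different genes are not compared here.

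None of the 29 tested granule and unipolar brush cell genes passed an adjusted p of 0.05 in either direction; the lowest adjusted p was 0.574 (limma with Benjamini-Hochberg adjustment over 14067 genes). Over all genes 5 passed, a share of 0.0355%. An unadjusted p under 0.05 was reached by 2 of the 29, Barhl1 and Fat2, against 8.57% of all genes. Values were higher in Gb5-deficient arrays for 19 genes and lower for 10, with a median log2 change of 0.04, against a median of 0.03 and 7982 higher of 14067 over all genes. All single-gene changes lay between -0.12 and 0.35.

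The intervals show what sizes were compatible with the arrays. For 25 of the 29 genes the 95% interval of the change lay inside ± 0.5 on the log2 scale, and for all 29 inside ± 1; over all tested genes the shares were 73.6% and 98.4%. The 4 genes that reached beyond ± 0.5 were Barhl1, Fat2, Nfic and Eomes. The median SE of the 29 was 0.11, against 0.12 for all genes, and the smallest p that a permutation of 3 against 3 arrays allows is 0.1, so single genes were tested in the fit across all genes only.

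**Figure D1:**
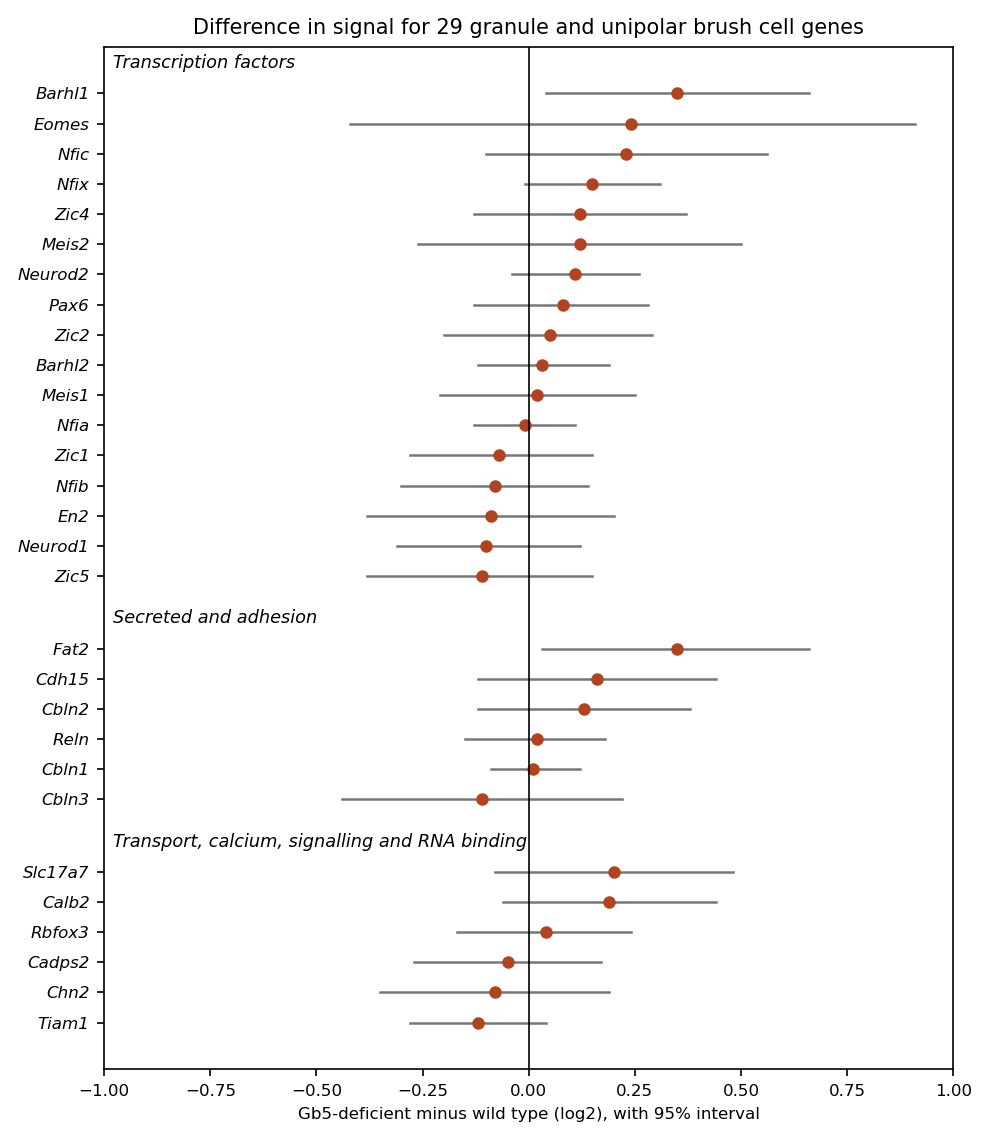
Gb5-deficient minus wild-type difference (log2, x axis) for the 29 tested genes, grouped by role on the y axis; dots are fitted differences and lines their 95% intervals (n = 3 arrays each). The intervals of Barhl1 and Fat2 lie above 0 before adjustment and that of Eomes is the widest, from -0.42 to 0.91.

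Among the transcription factors, 18 of 19 had a probe and 17 were tested; 11 had higher and 6 lower values in Gb5-deficient arrays, with a median of 0.05. Barhl1, a homeobox factor of granule cell precursors and their descendants, had the largest difference. It read 7.79, 7.97 and 8.16 on Gb5-deficient arrays, against 7.45, 7.77 and 7.66 on wild-type arrays, a log2 change of 0.35 (SE 0.14; limma adjusted p = 0.574). Every Gb5-deficient array lay above every wild-type array, though Gb5-deficient array 4 only just, and the change was 0.25 without Gb5-deficient array 6. A second, dimmer Barhl1 probe had a difference of 0.26 with groups that overlapped. Its relative Barhl2 read 11.84, 11.92 and 11.83 on Gb5-deficient arrays, against 11.87, 11.72 and 11.90 on wild-type arrays, and its interval ran from -0.12 to 0.19.

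The NEUROD factors, which drive granule neuron differentiation and survival, had values of both signs. Neurod2 read 11.84, 11.81 and 11.97 on Gb5-deficient arrays, against 11.75, 11.75 and 11.80 on wild-type arrays. Its groups did not overlap, but the change was 0.11 (95% interval from -0.04 to 0.26), and 0.06 without Gb5-deficient array 6. The mean of its 3 probes gave 0.01, with 1 of them below the limit for dim probes (difference -0.14). The other probe above the limit differed by 0.07, with groups that overlapped. Neurod1 read 12.66, 12.27 and 12.42 on Gb5-deficient arrays, against 12.60, 12.58 and 12.45 on wild-type arrays, and its second probe went the same way (differences of -0.10 and -0.17).

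The ZIC zinc finger factors mark granule cells from progenitor to adult, and lie in the genome as the neighbours Zic1 with Zic4 and Zic2 with Zic5. Zic1 read 12.93, 12.57 and 12.83 on Gb5-deficient arrays, against 12.95, 12.82 and 12.75 on wild-type arrays. Zic5 read 11.69, 11.20 and 11.43 on Gb5-deficient arrays, against 11.62, 11.57 and 11.48 on wild-type arrays. In both genes Gb5-deficient array 5 was the lowest of all 6 arrays, and the groups overlapped. Zic4 (0.12) and Zic2 (0.05) had intervals from -0.13 to 0.37 and from -0.20 to 0.29, and Zic4 was at 0.05 without Gb5-deficient array 6.

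The NFI family times the late steps of granule cell maturation, and its members are also expressed in cerebellar glia. Nfix read 13.15, 13.17 and 13.40 on Gb5-deficient arrays, against 13.07, 13.04 and 13.16 on wild-type arrays, a change of 0.15 (limma adjusted p = 0.596) that was 0.07 without Gb5-deficient array 6. Nfic read 9.88, 9.82 and 10.33 on Gb5-deficient arrays, against 9.68, 9.88 and 9.79 on wild-type arrays, a change of 0.23 that was 0.07 without Gb5-deficient array 6. Nfia had the tightest transcription factor values, from 12.50 to 12.63 on Gb5-deficient arrays and from 12.56 to 12.62 on wild-type arrays. Nfib differed by -0.08, with an interval from -0.30 to 0.14.

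Pax6, the paired homeobox factor of the rhombic lip lineage, had a change of 0.08 (interval from -0.13 to 0.28), which was 0.02 without Gb5-deficient array 6. En2, a homeobox factor of the midbrain and cerebellar territory, read 11.85, 11.35 and 11.60 on Gb5-deficient arrays, against 11.87, 11.60 and 11.61 on wild-type arrays. The TALE homeobox factor Meis1 differed by 0.02 and its relative Meis2 by 0.12. Eomes read 9.22, 8.23 and 8.70 on Gb5-deficient arrays, against 9.05, 8.20 and 8.16 on wild-type arrays: its spread within a genotype, with SDs of 0.49 and 0.50, was larger than the difference of 0.24 between genotypes. That difference was -0.01 without Gb5-deficient array 4, 0.25 without array 6 and 0.53 without wild-type array 1. Lmx1a read 3.21, 3.07 and 3.29 on Gb5-deficient arrays, against 3.21, 3.08 and 3.06 on wild-type arrays, with means at percentiles 8.3 and 7.2 of probe signals, and was not tested.

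The secreted and adhesion genes (6 of 6 tested; 5 higher, 1 lower, median 0.07) held the other large difference. Fat2, an atypical cadherin of granule cell parallel fibres, read 10.05, 9.81 and 10.33 on Gb5-deficient arrays, against 9.81, 9.59 and 9.75 on wild-type arrays, a log2 change of 0.35 (SE 0.14; limma adjusted p = 0.574). The groups were separated only at the third decimal, since Gb5-deficient array 5 and wild-type array 1 both read 9.81. Without Gb5-deficient array 6 the change was 0.21 and without array 5 it was 0.47. Cdh15, a classical cadherin known from muscle and granule cells, differed by 0.16 with overlapping groups (0.13 without Gb5-deficient array 6, and 0.09 to 0.24 over the 6 single arrays left out).

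Cbln1, the cerebellin that holds parallel fibre synapses together, was the least variable listed gene. It read 13.29, 13.20 and 13.24 on Gb5-deficient arrays, against 13.28, 13.17 and 13.23 on wild-type arrays, and its 95% interval ran from -0.09 to 0.12. Its other probes differed by 0.00 and -0.07. Cbln3, which is secreted as a partner of Cbln1, read 12.74, 12.25 and 12.40 on Gb5-deficient arrays, against 12.85, 12.42 and 12.45 on wild-type arrays, so that the brightest array of each genotype lay above the other arrays of both. Cbln2 read 11.85, 12.22 and 11.98 on Gb5-deficient arrays, against 11.72, 11.92 and 12.01 on wild-type arrays, with arrays 4 and 1 the lowest of their genotypes. Reln, the secreted positional signal made by granule cells, differed by 0.02 (interval from -0.15 to 0.18).

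Genes of transmitter loading, calcium binding, release, signalling and RNA binding (6 of 6 tested; 3 higher, 3 lower, median -0.01) also gave no passing gene. Slc17a7, the vesicular glutamate transporter of parallel fibres, read 10.34, 9.93 and 10.24 on Gb5-deficient arrays, against 10.09, 9.94 and 9.89 on wild-type arrays (change 0.20, interval from -0.08 to 0.48). The change was 0.12 without Gb5-deficient array 4, 0.32 without array 5 and 0.16 without array 6. Calb2, the calcium-binding protein calretinin of granule and unipolar brush cells, read 11.03, 10.97 and 11.27 on Gb5-deficient arrays, against 11.06, 10.77 and 10.89 on wild-type arrays. Its change of 0.19 was 0.10 without Gb5-deficient array 6 and 0.27 without wild-type array 1, and both genes had overlapping groups. Cadps2, a priming factor for dense-core vesicles, differed by -0.05, the Rac activator Tiam1 by -0.12 and the Rac-inactivating protein gene Chn2 by -0.08. The neuronal splicing factor Rbfox3, known as the antigen NeuN, differed by 0.04. Of its dimmer probes, one differed by 0.06 with overlapping groups and the other by 0.29 without overlap. The mean of the Rbfox3 probes gave 0.13. A dimmer Tiam1 probe differed by -0.27, also without overlap.

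Groups did not overlap in 3 of the 29 genes, Barhl1, Fat2 and Neurod2, all higher in Gb5-deficient arrays. Over all tested genes the groups did not overlap in 14.9%, with 10.1% higher and 4.82% lower, so 3 of 29 is near the background.

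**Figure D2:**
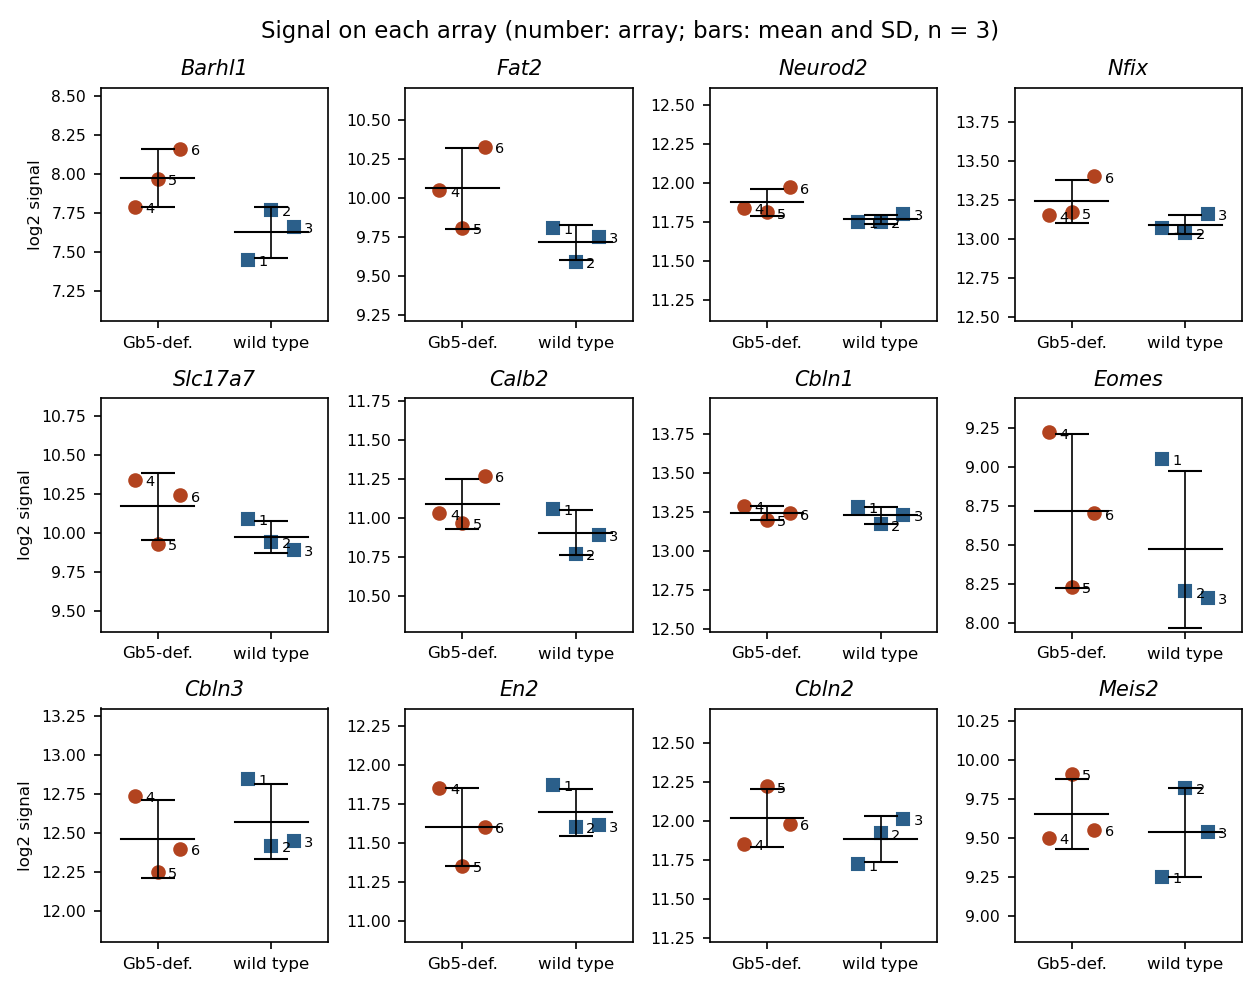
Log2 signal (y axis, each panel spanning the same height) on the 3 Gb5-deficient arrays (circles, left) and 3 wild-type arrays (squares, right) for 12 genes; the number beside a point is its array, and bars are the mean and SD. Arrays 4 and 1 are the high points of Eomes, Cbln3 and En2, whereas array 1 is the low point of Cbln2 and Meis2.

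The listed genes varied together by array within each genotype. Gb5-deficient array 5 was the lowest of its genotype in 23 of 29 genes, where 33.1% of all tested genes had it lowest, and it lay above its genotype mean in 3 only, Barhl2, Cbln2 and Meis2. Wild-type array 1 was the highest of its genotype in 16 of 29, where 27.9% of all genes had it highest. By group this held for 6 of 17 transcription factors, 4 of 6 secreted and adhesion genes and 6 of 6 remaining genes. The order was not particular to the listed genes. Among 8 Purkinje markers array 5 was the lowest Gb5-deficient array in 6 and array 1 the highest wild-type array in 6. Among 10 astrocyte markers the counts were 5 and 7, and among 11 progenitor genes 2 and 1. The median deviation from the genotype mean was -0.16 on array 5 and 0.06 on array 1, against 0.01 and -0.02 over all genes. These counts were made after the values were seen and carry no test.

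Eomes showed the widest such range, 1.05 from its lowest to its highest array. Its second probe gave 7.47, 6.82 and 6.80 on Gb5-deficient arrays, against 7.42, 6.68 and 6.57 on wild-type arrays, again with arrays 4 and 1 high. Chn2, En2, Zic5, Slc17a7, Zic1 and Cadps2 were highest on arrays 4 and 1 of their genotypes and lowest among the Gb5-deficient on array 5. Cbln2 and Meis2 ran the other way: Meis2 read 9.50, 9.91 and 9.55 on Gb5-deficient arrays, against 9.25, 9.82 and 9.54 on wild-type arrays.

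**Figure D3:**
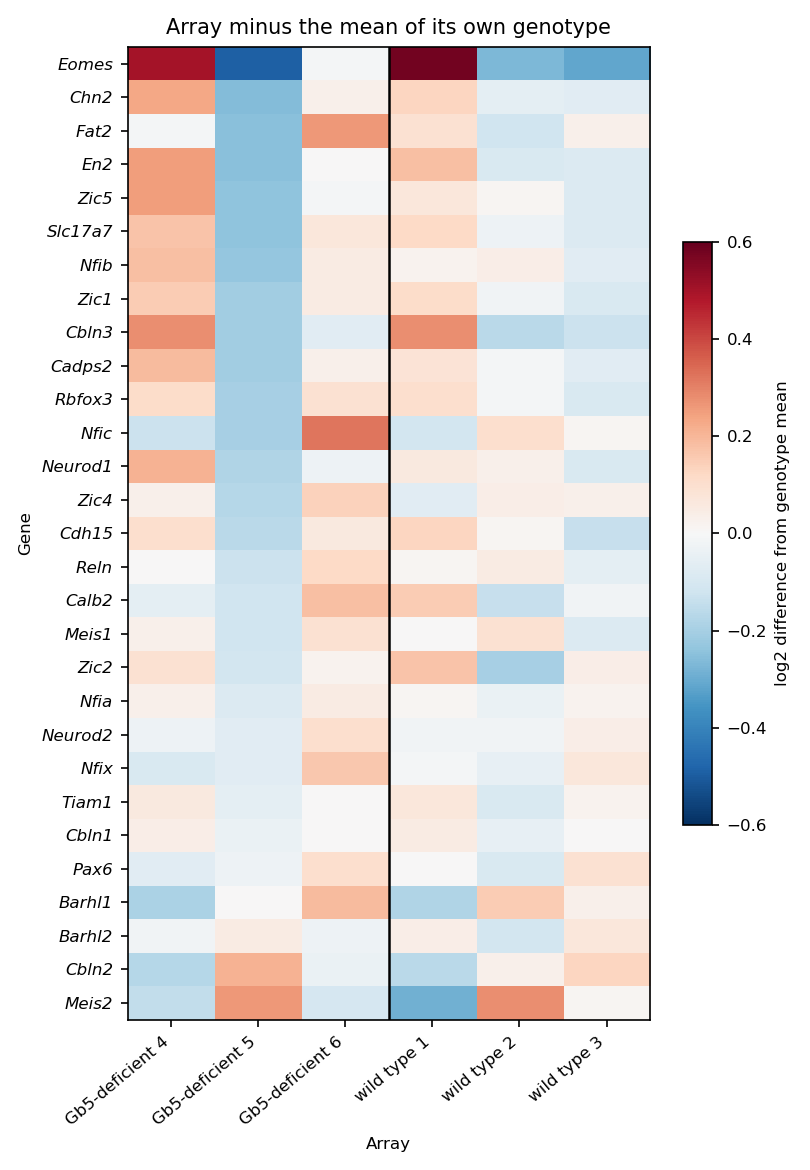
Deviation of each array (columns) from the mean of its own genotype (log2, colour) for the 29 genes (rows, ordered by the deviation on Gb5-deficient array 5). Gb5-deficient array 5 is blue in most rows, and Cbln2 and Meis2 at the bottom show the reverse.

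Other lists of the granule lineage were read in the same way. Of 15 further genes of mature granule cells 13 were tested and none passed in limma (7 higher, 6 lower, median 0.00; unadjusted p under 0.05 for 1, Grin2c). The NMDA receptor subunit Grin2c read 9.55, 9.07 and 9.73 on Gb5-deficient arrays, against 9.02, 9.00 and 8.81 on wild-type arrays (change 0.51; limma adjusted p = 0.553), and the extrasynaptic GABA-A receptor subunit Gabrd differed by 0.21. Gabra6, the granule cell GABA-A receptor subunit, read 12.83, 12.06 and 12.47 on Gb5-deficient arrays, against 12.85, 12.63 and 12.42 on wild-type arrays. In this list array 5 was the lowest Gb5-deficient array in 10 of 13 genes and array 1 the highest wild-type array in 10 of 13. Of 7 further unipolar brush cell genes 4 were tested and none passed (median -0.01), with the neuropeptide gene Grp at 0.26 and the phospholipase Plcb1 at -0.09. None of the 4 had an unadjusted p under 0.05.

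Progenitor genes gave another array order. Of 12 listed, 11 were tested and none passed in limma (7 higher, 4 lower, median 0.05; unadjusted p under 0.05 for 2); the hedgehog effector Gli2 had a value of 0.49 and the Wnt antagonist Sfrp1 one of 0.33. Their mean signal was 9.32, 9.45 and 9.48 on Gb5-deficient arrays, against 9.16, 9.35 and 9.45 on wild-type arrays, so that arrays 4 and 1 were the low ones of their genotypes. The mean of the 29 listed genes was 11.25, 11.05 and 11.25 on Gb5-deficient arrays, against 11.18, 11.10 and 11.09 on wild-type arrays.

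Genes whose proteins act with the listed ones did not pass in limma either, and 2 of them, Pbx2 and Rac3, had an unadjusted p under 0.05. Of 9 partners of the cerebellins and of reelin 7 were tested (2 higher, 5 lower, median -0.02), from -0.03 to 0.10; the neurexin gene Nrxn2 and the reelin receptor gene Lrp8 had the largest values, 0.10 each. Of 13 partners and relatives of MEIS, TIAM1, CADPS2 and FAT2 12 were tested (3 higher, 9 lower, median -0.05). Rac3, a small GTPase of the Rac family, read 6.70, 7.33 and 7.37 on Gb5-deficient arrays, against 6.46, 6.72 and 6.54 on wild-type arrays (change 0.56; limma adjusted p = 0.553), with overlap at array 4, and the atypical cadherin gene Fat4 had a value of -0.31.

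Markers of other cells were measured on the same arrays, since several listed genes are also expressed outside the granular layer. Purkinje cell markers (8 tested, none passing, median -0.02; Slc1a6 0.13, Car8 -0.13) averaged 12.52, 12.32 and 12.37 on Gb5-deficient arrays, against 12.50, 12.36 and 12.35 on wild-type arrays, with arrays 4 and 1 high as for Eomes. Choroid plexus markers (8 tested, none passing, median -0.14; Ttr -0.56, F5 -0.53) averaged 6.87, 8.15 and 8.36 on Gb5-deficient arrays, against 8.91, 7.48 and 7.39 on wild-type arrays, which sets arrays 4 and 1 at opposite ends. Astrocyte and Bergmann glia markers (10 tested, none passing, median -0.01; Gjb6 -0.26, Aldh1l1 0.22) averaged 11.09 to 11.18 on the arrays of both genotypes. Inhibitory interneuron markers (7 tested, none passing, median 0.04; Sorcs3 0.33, Slc32a1 0.17) averaged 10.14 to 10.22 on Gb5-deficient arrays, against 10.05 to 10.12 on wild-type arrays.

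The remaining lists also held no passing gene in limma. An unadjusted p under 0.05 was reached by none of the Purkinje, choroid plexus, glial and interneuron genes just given. It was reached by 3 of 7 oligodendrocyte, 3 of 9 meningeal, 1 of 4 forebrain, 1 of 7 brainstem and none of 8 microglia genes. Over all tested genes the share was 8.57%, which is also the background for such counts in the lists before. Oligodendrocyte markers (7 tested, median -0.16; Ermn -0.30, Cldn11 -0.21) averaged 11.60 to 11.70 on Gb5-deficient arrays, against 11.75 to 11.80 on wild-type arrays. Meningeal and fibroblast markers (9 of 10 tested, median -0.11; Foxc2 -0.66, Ogn -0.56) averaged 9.11 to 9.27 on Gb5-deficient arrays, against 9.35 to 9.48 on wild-type arrays. Microglia markers (8 tested, median 0.00; Csf1r 0.22, C1qb -0.14) averaged 8.30 to 8.63 on Gb5-deficient arrays, against 8.39 to 8.55 on wild-type arrays. Forebrain markers (4 of 8 tested, median 0.01; Tbr1 -0.48, Neurod6 0.16) averaged 7.77 to 7.86 on Gb5-deficient arrays, against 7.88 to 7.92 on wild-type arrays. Brainstem and midbrain markers (7 of 11 tested, median 0.01; Slc6a3 -1.33, Pou4f1 0.60) averaged 8.46 to 8.56 on Gb5-deficient arrays, against 8.45 to 8.84 on wild-type arrays. The part of these cells in the values of the granule and unipolar brush cell genes was not tested.

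**Figure D4:**
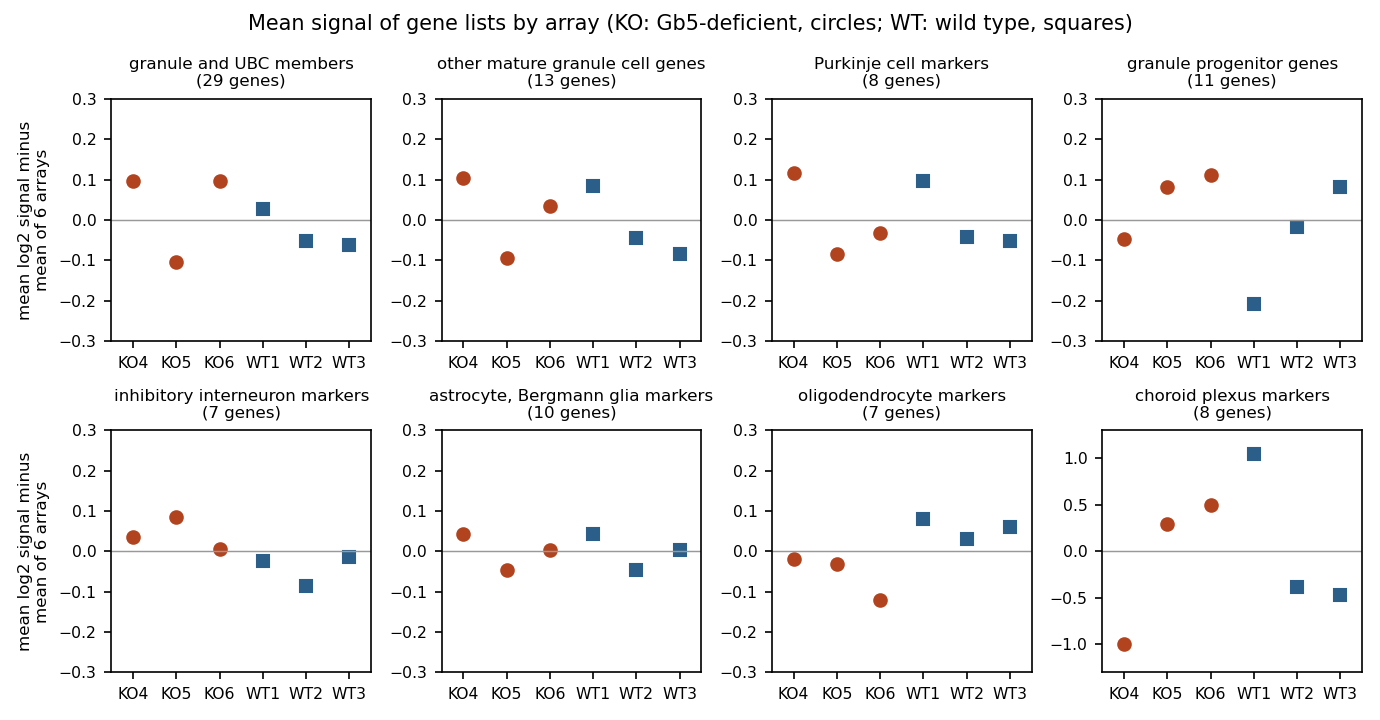
Mean log2 signal of 8 gene lists on each array (y axis: minus the mean of the 6 arrays; the choroid plexus panel has a wider scale), with Gb5-deficient arrays as circles and wild-type arrays as squares. The listed genes (top left) are lowest on Gb5-deficient array 5. Purkinje markers are high on arrays 4 (12.52) and 1 (12.50), and array 5 (12.32) lies close to the remaining arrays. Progenitor genes are lowest on wild-type array 1, and choroid plexus markers run from 6.87 on array 4 to 8.91 on array 1.

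Probes of the same gene did not always move together. The 30 genes had 76 probes, 72 of them above the limit for dim probes, and 20 genes had more than 1. No probe passed when each was tested on its own (lowest adjusted p = 0.581, against 0.0308% of all probes passing), 6 of the 72 had an unadjusted p under 0.05, against 8.38% of all probes, and 10 of the 72 had groups that did not overlap, against 14.9% of all probes. The 2 probes of Chn2 had differences of opposite sign: its brighter probe read 12.57, 12.08 and 12.37 on Gb5-deficient arrays, against 12.56, 12.36 and 12.35 on wild-type arrays, while its other probe read 9.34, 9.40 and 9.61 on Gb5-deficient arrays, against 9.26, 9.11 and 9.15 on wild-type arrays. The second probe's difference was 0.28, with no overlap, and the first probe's -0.08.

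Among the NFI genes and Pax6, some probes followed an array order of their own. The brightest Nfia probe spanned 0.13 over the 6 arrays, but another, with a mean of 10.21, read 10.12, 10.63 and 9.72 on Gb5-deficient arrays, against 10.58, 9.69 and 10.53 on wild-type arrays. An Nfib probe with a mean of 11.02 read 10.92, 11.26 and 10.85 on Gb5-deficient arrays, against 11.31, 10.50 and 11.31 on wild-type arrays. In both, array 6 of the Gb5-deficient and array 2 of the wild type were the low ones, and the genotype differences were -0.11 and -0.03. A Pax6 probe with a mean of 6.81 had the same low arrays, at 6.14 and 6.66, and a genotype difference of -0.27, against 0.08 for the brightest Pax6 probe. An Nfix probe with a mean of 9.82 was low on Gb5-deficient array 6 (9.25), opposite to the brightest Nfix probe, which was highest there (13.40). The dimmer of these probes had a genotype difference of -0.33, against 0.15 for the brightest probe and 0.26 for the next, whose groups did not overlap. On array 6 the Gapdh 3′ minus 5′ difference was also high, as given above, whereas on wild-type array 2 it was 1.04; its part in these probes was not tested.

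**Figure D5:**
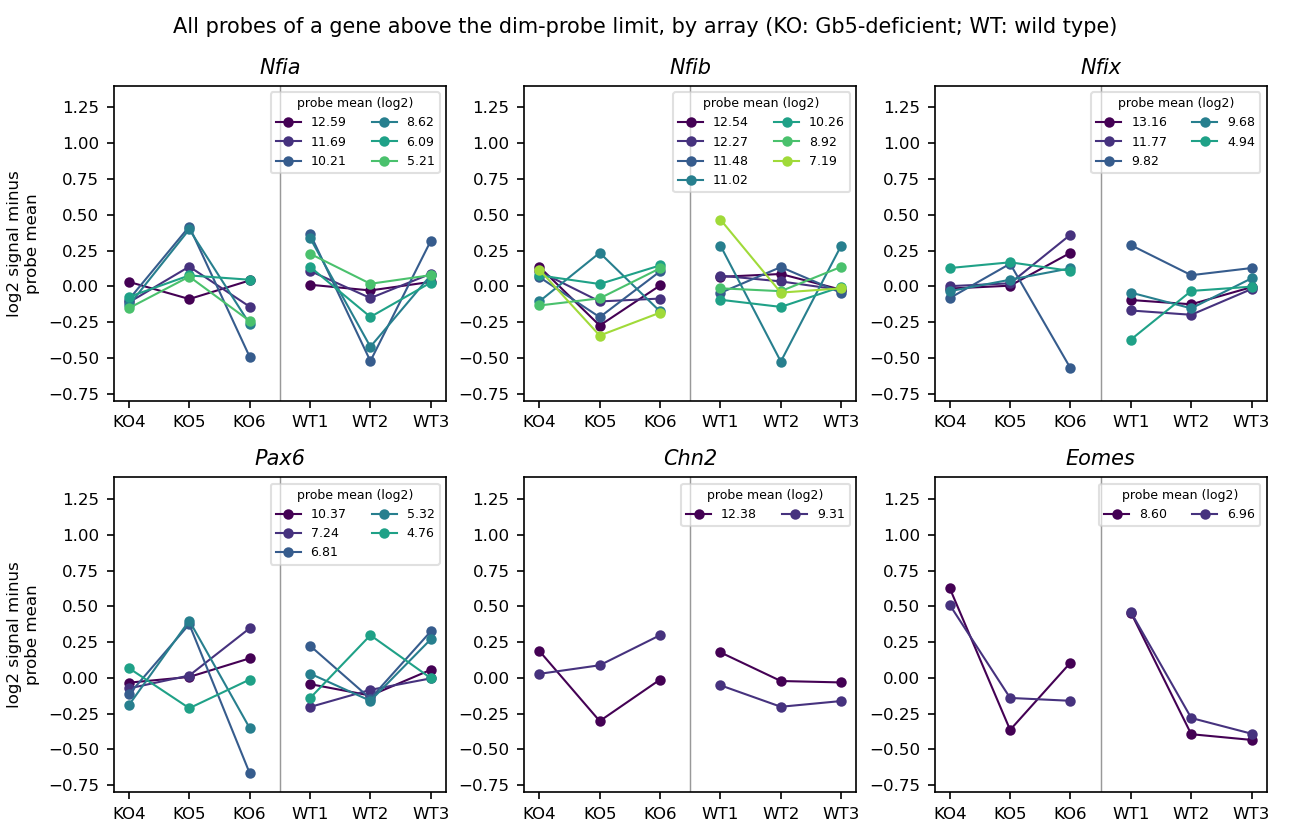
Every probe above the limit for dim probes of 6 genes: log2 signal minus that probe's mean (y axis) on the 6 arrays (x axis), coloured by the probe's mean signal. Both Eomes probes are high on arrays 4 and 1, and the Chn2 probes diverge on array 5. Some Nfia, Nfib, Nfix and Pax6 probes dip on array 6 or array 2 further than the brightest probe of their gene.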

How the data were processed

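RNA of 6 mouse samples (3 Gb5-deficient, 3 wild type) had been hybridised to 1-colour Affymetrix arrays. The deposited table holds log2 values, made by the authors for each probe set and array with RMA and Partek, as the submitters' processing notes name them without versions. No scanner file, scan date or detection call was used, so batches could be looked for in the values only. Groups follow the genotype label, and each column carries its sample's name. Of 45101 probes, 64 are controls; 34945 are annotated to 1 gene and 932 to several. Symbols were updated by Entrez identifier through a RefSeq table (assembly GRCm38.p6) for 34741 of the 1-gene probes.

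Genes were represented by their brightest probe and kept above the 30th percentile of probe means, which removed 4126 genes. They were compared with limma 3.58.1 in R 4.3.3 (linear model, empirical Bayes with intensity trend, Gb5-deficient minus wild type, two-sided, Benjamini-Hochberg adjustment over 14067 genes, threshold 0.05). The number of arrays limits precision. The p-values set the difference between genotypes against the spread between these samples, moderated for each gene by the spread of all tested genes. In 10 simulated runs with 200 changed genes, all independent, 1.6% of genes changed by 0.25, 24.0% by 0.5, 85.8% by 1 and 99.4% by 2 (log2) were recovered, and 4.75% of calls were false. The members and lists were chosen with earlier results of these data known. Every member is named, with the up to 2 largest changes of each other list; other genes were named after their values were seen. List members without a 1-gene probe above the limit were not analysed here. Motifs were searched in the 250 bases before RefSeq transcript starts. Alternatives were other filters, a second quantile normalization, array medians subtracted, other uses of a gene's probes, other variance models, array weights, and arrays left out.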

Additional observations from a re-analysis of the deposited data

How the results depend on the processing

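No member passed in limma under any of the 15 other settings, or without arrays 5 and 1 together. Over all genes 8 passed with no filter and 3 with a filter at the 50th percentile, 8, 4 and 2 without Gb5-deficient array 4, 5 and 6, 10, 3 and 3 without wild-type array 1, 2 and 3, and 15 without Gb5-deficient array 5 and wild-type array 1, a setting chosen after seeing the data; there the members' median was 0.12, against 0.04 with all arrays, 0.01 with array medians subtracted and, with single arrays left out, 0.005 (without Gb5-deficient array 4) to 0.079 (without array 5). Of 406 member values under 14 settings, 373 kept their sign and 33 changed it: Nfia 0.01 with a second quantile normalization; Meis1, Cbln1 and Reln -0.01 each with array medians subtracted; Pax6 -0.04, Cbln1 -0.02 and Chn2 0.10 with the mean of a gene's probes; Zic1 0.01, Barhl2 -0.01 and Cadps2 0.01 with array weights. The cause was not tested. With single arrays left out, the changes ran from -0.03 to 0.03 for Nfia, -0.02 to 0.08 for Meis1, -0.01 to 0.04 for Cbln1, -0.05 to 0.08 for Reln, -0.20 to 0.05 for Chn2, -0.14 to 0.04 for Zic1, -0.02 to 0.07 for Barhl2, -0.14 to 0.06 for Cadps2, -0.01 to 0.53 for Eomes, -0.02 to 0.14 for Rbfox3, -0.24 to 0.00 for Zic5, -0.17 to 0.03 for Nfib, -0.21 to 0.04 for En2, -0.03 to 0.26 for Meis2, -0.25 to 0.03 for Cbln3 and -0.05 to 0.13 for Zic2. Barhl1 (0.25 to 0.44) and Fat2 (0.21 to 0.47) kept their sign in each of the 14 settings. So did Neurod1, Neurod2, Zic4, Nfic, Nfix, Cbln2, Cdh15, Slc17a7, Calb2 and Tiam1, so a stable sign was not particular to the largest changes. Groups did not overlap in 3 members with all arrays, against 14.9% of all genes, and in 1 with array medians subtracted. The count was 8, 8 and 3 without Gb5-deficient array 4, 5 and 6, and 5 without any 1 wild-type array. Fewer arrays make overlap rarer. The share over all genes was not obtained for these other settings, so their counts are not read as a result about the members. No paired analysis was possible because the genotypes share no replicate numbers.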
